A study of Mus musculus with 10 samples.

Results

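Histone lysine methylation is written by methyltransferases, most of which carry a SET domain, and erased by demethylases of the flavin-dependent or Jumonji type. Described here are 50 genes of these enzymes in mouse tongue, taken as a listed set of symbols with Kdm1a left out, and all 50 were found among the 27151 genes of the deposited table. They were sorted by a histone residue their enzyme is known to act on, each into a single group, although some enzymes act on further residues. All mice were of the C57BL/6J strain and had been exposed to the oral carcinogen 4NQO. They were treated with Vehicle (4 libraries) or with the LSD1 inhibitor SP2509 (6 libraries), and RNA of the tongue was sequenced. Titles of treated libraries carry the name SP2509h, with an h that no label explains. Dose, schedule, age and sex are not among the labels. Nor do the labels tie libraries to single animals, and p-values here measure only the spread between libraries, which may be technical.

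As background, methylation of histone H3 lysine 4 marks promoters and enhancers in use, and LSD1, the product of Kdm1a, removes its mono- and dimethylated forms. Methylation of H3 lysine 9 and trimethylation of H4 lysine 20 are concentrated in silent chromatin. Methylation of H3 lysine 27 marks genes held silent by Polycomb proteins, and methylation of H3 lysines 36 and 79 covers transcribed gene bodies. The oral epithelium renews itself from basal keratinocytes, and genes of several of these enzymes, among them Kmt2d and Nsd1, are recurrently mutated in squamous cell carcinoma of the head and neck.

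Values are read counts divided by 1 size factor per library and are called normalised reads. Vehicle libraries held 9180844 to 14768955 whole reads and SP2509 libraries 15748571 to 19375555. SP2509 replicates 1 and 2, and replicates 4 and 5, resembled each other more than any of the other 19 pairs of libraries of 1 group did: the squared difference relative to counting error rose from low to high genes by 1.06 between replicates 1 and 2, by 0.208 between replicates 4 and 5 and by 8.27 to 155.7 in the others. Each such pair was averaged to 1 unit for means and SDs (n = 4 SP2509 units), and adjusted p-values with the pairs merged are given beside each call. Replicates 4 and 5 also held 270600 and 281200 normalised reads of the gland mucin gene Muc5b, which was at 644 or less elsewhere. Mitochondrial genes took 35.3% to 52.1% of reads in Vehicle and 24.0% to 32.2% in SP2509, and the part of that difference in the results below was not tested beyond the rescaling given at the end. Keratinocyte and skeletal muscle markers were present in every library, and Xist stood at 9043 to 14490 in every library.

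Between Vehicle and SP2509 most genes of histone methylation enzymes kept levels that did not differ beyond the spread between libraries. Kmt5c, Dot1l and Setd1b were lower with SP2509 and Smyd2 was higher (limma, adjusted p under 0.05 over 17088 genes tested). The 3 lower members are 6.0% of the 50, where 4.15% of all genes tested were called lower, and the 1 higher member is 2.0%, where 4.95% were called higher. In this limma fit the shares lie near the background, so its counts do not set the enzymes apart from other genes. With the close pairs merged no member and no other gene passed limma, while 10 members had an unadjusted p under 0.05 in that fit, where 9.67% of all genes tested were lower and 11.6% higher at that threshold. On the recovered reads edgeR called Kmt5c, Dot1l and Smyd2 in the same directions (background 3.38% lower and 5.3% higher). DESeq2 called 8 members lower, Kmt2b, Kmt2d, Setd1b, Kdm3a, Kdm3b, Kmt5b, Kmt5c and Dot1l, and Smyd2 higher, against a background of 8.16% lower and 9.4% higher.

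Fold changes were negative for 30 members and positive for 20, and negative for 48.1% of all genes tested. The median log2 fold change of the members was -0.05, against 0.02 over all genes tested. In 5 members, Setd1b, Kdm3a, Kdm3b, Kmt5b and Kmt5c, every SP2509 library lay below every Vehicle library, which held for 5.11% of all genes tested. In 2 members, Kdm1b and Smyd2, every SP2509 library lay above every Vehicle library, as in 6.54% of all genes tested. An unadjusted p under 0.05 was reached by 13 of the 50 members, which is no more than the share of all genes tested (28%). In the groups without a called member these were 1 demethylase of H3 lysine 4, 1 methyltransferase and 3 demethylases of H3 lysine 9 and 1 demethylase of H3 lysine 27, and 0 of the other enzymes of H3 lysines 27 and 36. In bulk tissue fewer cells of a type and less RNA per cell cannot be told apart, which holds for every difference given here.

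**Figure D1:**
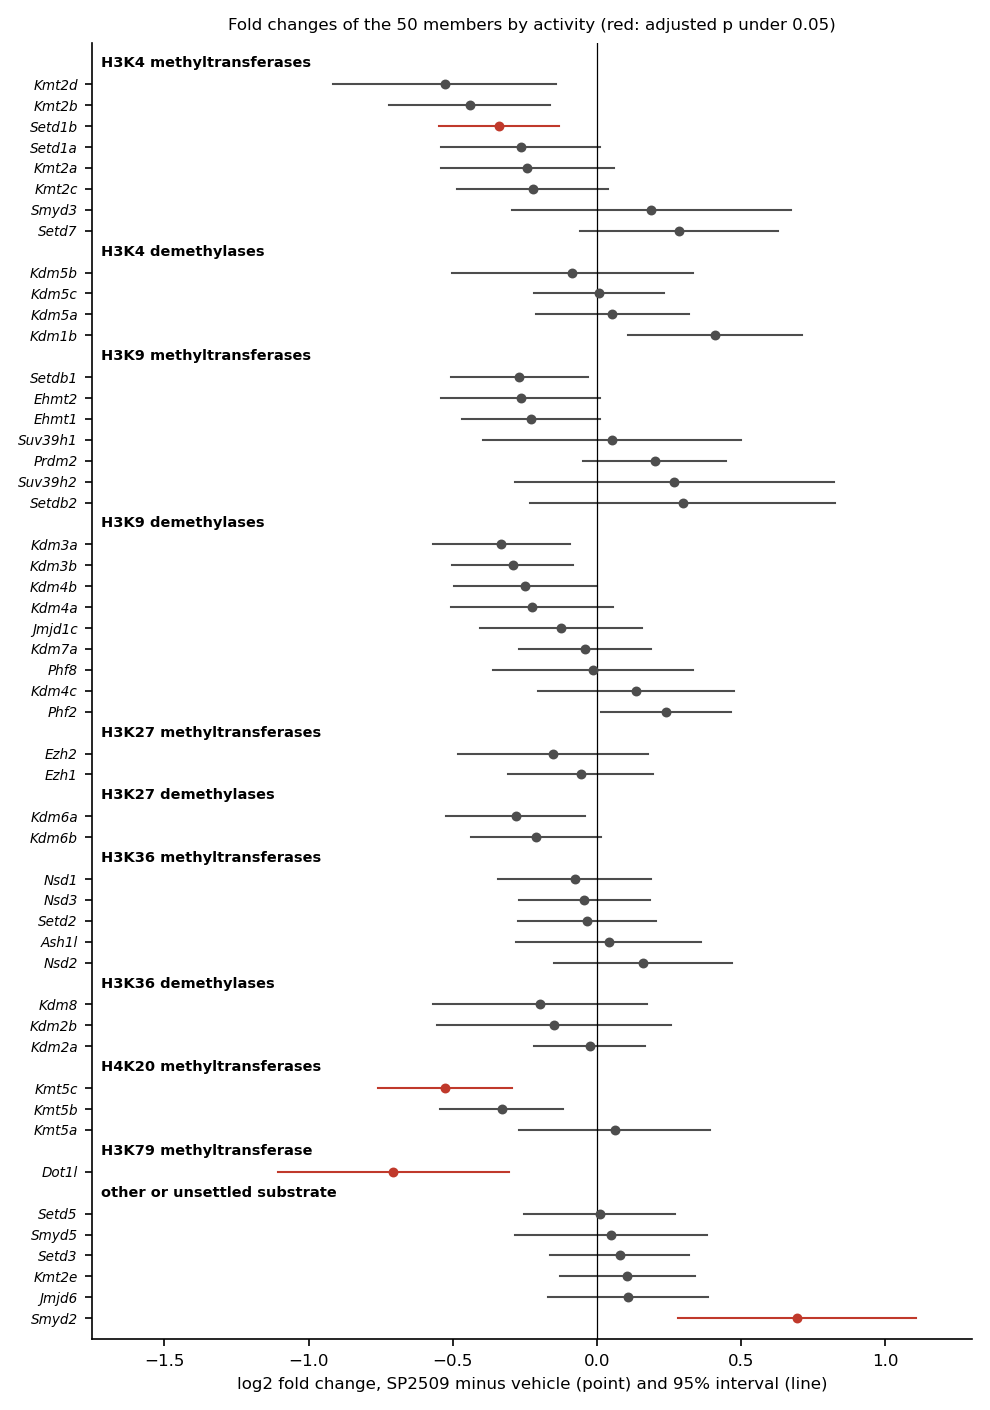
Log2 fold change (SP2509 minus Vehicle, horizontal axis) of the 50 members, 1 row per gene, grouped by the residue the enzyme acts on. Points are estimates of the 10-library fit, lines their 95% intervals, and red marks an adjusted p under 0.05. The lowest point is Dot1l at -0.71 and the highest Smyd2 at 0.69.

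The methyltransferases of H4 lysine 20 held the member with the smallest p. Kmt5c, which completes di- and trimethylation of H4 lysine 20 in heterochromatin, lies at chromosome 7, 4740115 to 4747514 on the plus strand (GRCm38). It had 1211, 1281, 1112 and 1187 normalised reads in Vehicle replicates 1 to 4 and between 717 and 978 (median 826) in the 6 SP2509 libraries. Every SP2509 library was below every Vehicle library. The mean was 1198 ± 69.5 (SD, n = 4) in Vehicle and 825.5 ± 84.8 (SD, n = 4 units) in SP2509. Kmt5c fell by 0.53 on the log2 scale (SE 0.11, 95% interval -0.76 to -0.30, limma adjusted p = 0.0165, and 0.0735 with the pairs merged). Of 24 alternatives, 22 kept the call. It was lost with the pairs merged and without Vehicle replicate 1 (log2 fold change -0.52, limma adjusted p = 0.0543).

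Kmt5b, the paralog with the same reaction, lay at 853, 938, 764 and 764 in Vehicle and between 610 and 706 (median 660) in SP2509. The groups were apart, as for Kmt5c, but the difference missed the threshold (log2 fold change -0.33, SE 0.10, limma adjusted p = 0.0532, and 0.156 with the pairs merged). Kmt5a, which sets monomethylation and is best known for its part in the cell cycle, averaged 1268 ± 297 normalised reads (SD, n = 4) with Vehicle and 1297 ± 178 (n = 4 units) with SP2509. Its log2 fold change of 0.06 had a 95% interval from -0.27 to 0.39. Per kilobase of the longest transcript, Kmt5c exceeded Kmt5b by 3.02 to 3.43 times in the Vehicle libraries and by 2.46 to 3.47 times in the SP2509 libraries.

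Dot1l encodes the methyltransferase of H3 lysine 79, which has no SET domain, and lies at chromosome 10, 80755206 to 80795461 on the plus strand. Vehicle replicates 1 to 4 held 3312, 2981, 4315 and 3105 normalised reads of Dot1l, and the SP2509 libraries held between 1550 and 2998 (median 2130). SP2509 replicates 1 to 5 were below every Vehicle library, and replicate 6, at 2998, lay within the Vehicle range. The lowest values, 1550 and 1675, were those of replicates 4 and 5, the libraries with high Muc5b. The mean was 3428 ± 607 (SD, n = 4) in Vehicle and 2245 ± 570 (n = 4 units) in SP2509. Dot1l fell by 0.71 on the log2 scale (SE 0.18, 95% interval -1.11 to -0.30, limma adjusted p = 0.0363, and 0.135 merged). Without SP2509 replicates 4 and 5 together the log2 fold change was -0.52 (limma adjusted p = 0.116). The call was also lost on leaving out any 1 Vehicle library or any 1 of SP2509 replicates 1 to 5 (limma adjusted p from 0.053 to 0.0964).

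Smyd2 was the member called higher. Its product methylates lysines of many proteins outside chromatin, p53 among them, and of histone H3 in vitro. The gene lies at chromosome 1, 189880492 to 189922363 on the minus strand. Smyd2 had 128, 69.1, 108 and 131 normalised reads in Vehicle replicates 1 to 4 and between 140.5 and 189 (median 179.7) in SP2509. Every SP2509 library was above every Vehicle library, and the margin between 131 and 140.5 was narrow. Smyd2 rose by 0.69 on the log2 scale (SE 0.19, 95% interval 0.28 to 1.10, limma adjusted p = 0.0416, and 0.145 merged), from 109 ± 28.5 (n = 4) to 169.5 ± 20.1 (n = 4 units). Leaving out any 1 library other than Vehicle replicate 4 or SP2509 replicate 6 took the adjusted p to between 0.0554 and 0.0826, and the log2 fold change was 0.49 without Vehicle replicate 2, the lowest library. The antisense gene Gm37422 shares 814 of 2717 exon bases with Smyd2 and was itself at 72.3 to 118 in Vehicle and 99.5 to 126 in SP2509 (log2 fold change 0.34, limma adjusted p = 0.222). The strand setting of the counting is not given in the sources used here, so reads of the pair may not be fully separated.

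The stretches before the start sites of Kmt5c, Dot1l and Smyd2 are shown because these are the called members with an entry among the RefSeq promoters (GRCm38.p6), where 36 of the 50 members matched. Each runs 5′ to 3′ on the gene's strand and ends before the first transcribed base of both RefSeq and GENCODE. Capitals mark CCAAT (or ATTGG on the other strand) and GGGCGG (or CCGCCC), 2 common promoter motifs picked for this display. The windows are chr7:4739877-4740114 (238 bases, plus strand), chr10:80754953-80755202 (250 bases, plus strand) and chr1:189922364-189922541 (178 bases, minus strand).
Kmt5c: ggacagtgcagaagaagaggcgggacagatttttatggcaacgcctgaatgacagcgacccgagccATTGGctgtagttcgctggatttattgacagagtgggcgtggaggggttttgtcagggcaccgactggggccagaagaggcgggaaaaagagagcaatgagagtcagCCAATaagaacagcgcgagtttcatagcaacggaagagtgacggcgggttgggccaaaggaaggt
Dot1l: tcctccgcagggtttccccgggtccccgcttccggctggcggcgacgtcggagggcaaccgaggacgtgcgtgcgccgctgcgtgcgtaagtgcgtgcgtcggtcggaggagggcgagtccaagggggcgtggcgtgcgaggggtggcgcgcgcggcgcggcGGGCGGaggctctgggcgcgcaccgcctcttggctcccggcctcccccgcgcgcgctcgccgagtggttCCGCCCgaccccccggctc
Smyd2: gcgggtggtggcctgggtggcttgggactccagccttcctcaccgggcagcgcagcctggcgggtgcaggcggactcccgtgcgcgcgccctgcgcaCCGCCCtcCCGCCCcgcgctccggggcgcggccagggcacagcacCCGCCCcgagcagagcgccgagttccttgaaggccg

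The Kmt5c stretch held 2 matches to CCAAT and 0 to GGGCGG, with 54.6% GC and 13 CpG. The Dot1l stretch held 0 and 2 matches, with 78.4% GC and 44 CpG. The Smyd2 stretch held 0 and 3 matches, with 78.1% GC and 22 CpG. Over the same number of bases, 32.9% of 32851 promoters held CCAAT (for Kmt5c), and 32.7% (for Dot1l) and 20.7% (for Smyd2) held GGGCGG, so matches of this kind are common. Over 250 bases the median promoter had 52.4% GC and 6 CpG. Only letters were searched, and no binding was measured.

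**Figure D2:**
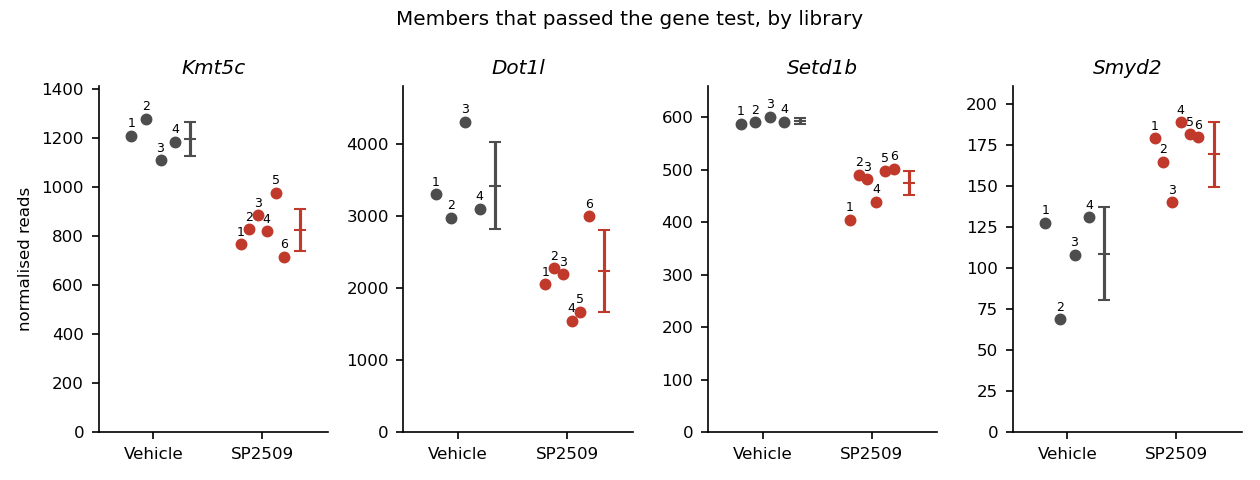
Normalised reads (vertical axis, from 0) of the called members Kmt5c, Dot1l, Setd1b and Smyd2 in each library, numbered by replicate, with the mean and SD of 4 Vehicle libraries and of 4 SP2509 units as bars. The groups are apart for Kmt5c, Setd1b and Smyd2, and SP2509 replicate 6 of Dot1l (2998) overlaps with Vehicle.

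Among the 8 methyltransferases of H3 lysine 4, 1 was lower, none was higher and 6 were at negative fold changes. Their median was -0.25. Setd1b, a catalytic subunit of the SET1 complexes that place trimethylation at promoters, lies at chromosome 5, 123142193 to 123168629 on the plus strand. It had 588, 591, 601 and 592 normalised reads in Vehicle and between 405 and 502 (median 486) in SP2509. The groups were apart and the Vehicle libraries almost equal. Setd1b fell by 0.34 on the log2 scale (SE 0.10, 95% interval -0.55 to -0.13, limma adjusted p = 0.0459, and 0.134 merged), from 593 ± 5.70 (n = 4) to 475 ± 22.7 (n = 4 units). With edgeR the adjusted p was 0.0629, and with a correction for transcript length and GC content the log2 fold change was -0.11 (limma adjusted p = 0.518). Among the fits that left out 1 library, the one without SP2509 replicate 6 kept the call, and the others gave limma adjusted p-values from 0.0692 to 0.102.

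Kmt2b, which encodes the MLL2 enzyme active at CpG-rich promoters, stood at 1960, 1763, 2059 and 1690 in Vehicle and between 1200 and 1694 (median 1272) in SP2509. SP2509 replicate 2, at 1694, lay within the Vehicle range and the other 5 libraries lay below it. The log2 fold change was -0.44 (SE 0.13, limma adjusted p = 0.0506, and 0.113 merged). Kmt2d, which marks enhancers, had the group's most negative fold change, -0.53 (SE 0.18, limma adjusted p = 0.0788), with 1707 and 1860 normalised reads in SP2509 replicates 4 and 5, against 2318 to 3341 elsewhere in SP2509 and 3106 to 3621 in Vehicle. Of the remaining genes, Setd1a, Kmt2a and Kmt2c lay between -0.27 and -0.22, and Smyd3 and Setd7 at 0.19 and 0.29. None of these 5 passed. Of the exon bases of Setd1a, 51.9% are shared with the same-strand gene Gm49388, so its count is uncertain.

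The 4 demethylases of H3 lysine 4 held no called gene, and their median log2 fold change was 0.03. Kdm1b encodes LSD2, the flavin-dependent relative of LSD1. Its values were 145, 158, 152 and 174 in Vehicle and between 188 and 271.5 (median 198) in SP2509. Every SP2509 library was above every Vehicle library, with the highest value in replicate 3. The log2 fold change of Kdm1b was 0.41 (SE 0.14, 95% interval 0.11 to 0.71, limma adjusted p = 0.0806, and 0.157 merged). The antisense gene Dek covers 9.19% of the Kdm1b exon bases. Dek was at 410 to 467 in Vehicle and 404 to 635.5 in SP2509 (log2 fold change 0.26, limma adjusted p = 0.209). The part of Dek reads in the Kdm1b values was not tested. For comparison, Kdm1a itself, the gene of the drug's target, was at 659 to 823 in Vehicle and 641 to 848 in SP2509 (log2 fold change 0.01, SE 0.12, limma adjusted p = 0.958).

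Kdm5b and the X-linked Kdm5c belong to the Jumonji family that removes trimethylation of H3 lysine 4. Kdm5b had 512, 648, 424 and 459 normalised reads in Vehicle and between 316 and 611.5 (median 498) in SP2509. The groups overlapped widely, with the lowest value in SP2509 replicate 6 (log2 fold change -0.09, SE 0.19, limma adjusted p = 0.808). Kdm5c had 968, 874, 956 and 1025 in Vehicle and between 849 and 1115 (median 959) in SP2509, with a log2 fold change of 0.01 (95% interval -0.22 to 0.23). Kdm5a, of the same family, was at 0.05 (95% interval -0.21 to 0.32). Per kilobase, Kdm5b was 0.328 to 0.549 of Kdm5c in Vehicle and 0.275 to 0.449 in SP2509.

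None of the 7 methyltransferases of H3 lysine 9 passed, and their median log2 fold change was 0.05. Setdb1, which works with Trim28 to silence retroelements, stood at 1061, 1017, 809 and 851 in Vehicle and between 694.5 and 865 (median 759) in SP2509. SP2509 replicate 3, at 865, lay within the Vehicle range and the other 5 libraries below it. The log2 fold change of Setdb1 was -0.27 (SE 0.11, limma adjusted p = 0.131). Ehmt2, which encodes G9a, had 2778, 2440, 2423 and 2103 in Vehicle and between 1697 and 2322 (median 1969) in SP2509. The ranges overlapped in SP2509 replicates 1 and 2, and the log2 fold change was -0.27 (SE 0.13, limma adjusted p = 0.193). Ehmt1, the partner of G9a, was at -0.23 (limma adjusted p = 0.197). The heterochromatin enzymes Suv39h1 and Suv39h2 were at 0.05 and 0.27, Setdb2 at 0.30 and Prdm2 at 0.20. SP2509 replicate 6 was lowest of all 10 libraries in both Suv39h1 (142) and Suv39h2 (37.4), and 4 of 6 proliferation markers were lowest there too, among them Mki67 (286.5) and Top2a (197). The other 2, Mcm2 (209) and Pcna (447), lay within their Vehicle ranges there. The part of proliferating cells in these levels was not tested.

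Of 9 demethylases of H3 lysine 9, none passed, 7 were at negative fold changes and the median was -0.13. Kdm3a, whose product removes mono- and dimethylation and whose gene is induced by hypoxia, had 660, 597, 609.5 and 577 normalised reads in Vehicle and between 399 and 566 (median 497) in SP2509. The groups were apart, with the lowest value in SP2509 replicate 6. The log2 fold change of Kdm3a was -0.33 (SE 0.11, limma adjusted p = 0.0729, and 0.178 merged). Of 7 hypoxia-induced markers, 2, Pgk1 and Ldha, were called higher in the same comparison (log2 fold change 1.37 and 1.07). With the pairs merged their limma adjusted p-values were 0.0718 and 0.0751. Egln3 and Bnip3 had positive fold changes (0.92 and 0.70) that did not pass. The other 3, Car9, Ankrd37 and Slc2a1, had negative fold changes (-0.40, -0.34 and -0.09) that did not pass. The summed level of the 7, to which Ldha added most, was 5494 to 9516 in Vehicle and 10710 to 15780 in SP2509, and its part in the level of Kdm3a was not tested.

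Kdm3b, its paralog, had 873, 904.5, 752 and 816 in Vehicle and between 603 and 728 (median 691) in SP2509. Its groups were apart as well (log2 fold change -0.29, SE 0.10, limma adjusted p = 0.0743, and 0.171 merged). The antisense gene Gm26538 covers 24.6% of the Kdm3b exon bases. Kdm4a, Kdm4b and Jmjd1c were at -0.23, -0.25 and -0.13, and Phf8 and Kdm7a at -0.01 and -0.04. Kdm4c and Phf2 were at 0.14 and 0.24. None of these 7 passed.

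H3 lysine 27 is methylated by Ezh1 and Ezh2, the alternative catalytic subunits of Polycomb repressive complex 2. Ezh2, the form of dividing cells, had 291, 261, 208 and 204 normalised reads in Vehicle and between 181.5 and 262 (median 210) in SP2509. Ezh1, the form of resting and differentiated cells, had 692, 568, 801 and 746 in Vehicle and between 575 and 730 (median 684) in SP2509. Both overlapped between the groups, with log2 fold changes of -0.15 (95% interval -0.48 to 0.18) for Ezh2 and -0.06 (95% interval -0.31 to 0.19) for Ezh1. Per kilobase Ezh2 was below Ezh1 in every library, at 0.393 to 0.694 of its level in Vehicle and 0.395 to 0.574 in SP2509.

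The demethylases sorted under H3 lysine 27 were both at negative fold changes and neither passed. Kdm6a, the X-linked UTX gene, had 430, 342, 439 and 416 in Vehicle and between 301 and 370 (median 339) in SP2509. SP2509 replicates 3, 4 and 5 lay below every Vehicle library and the others within the range (log2 fold change -0.28, SE 0.11, limma adjusted p = 0.122). Kdm6b, the inducible JMJD3 gene, had 1213, 1159, 1458 and 1153 in Vehicle and between 994 and 1153 (median 1068) in SP2509. The highest SP2509 library, replicate 6, stood level with the lowest Vehicle library, and the log2 fold change was -0.21 (SE 0.10, limma adjusted p = 0.207). With the correction for transcript length and GC content it was -0.02. Per kilobase Kdm6b exceeded Kdm6a by 2.47 to 3.02 times in Vehicle and by 2.61 to 3.2 times in SP2509.

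The 5 methyltransferases of H3 lysine 36 held no called gene, at a median of -0.03. Nsd1, which places dimethylation, had 1420, 1173, 1458 and 1445 normalised reads in Vehicle and between 1069 and 1480 (median 1329) in SP2509 (log2 fold change -0.08, 95% interval -0.34 to 0.19). Nsd2, its paralog, had 323, 388.5, 336 and 300 in Vehicle and between 309 and 475 (median 377) in SP2509 (log2 fold change 0.16, 95% interval -0.15 to 0.47). The ranges overlapped for both. Setd2, the enzyme of trimethylation in gene bodies, was at -0.03 (95% interval -0.27 to 0.20), Nsd3 at -0.04 and Ash1l at 0.04.

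The 3 demethylases sorted under H3 lysine 36 had negative fold changes with a median of -0.15, and none passed. Kdm8, which has also been described as a hydroxylase and peptidase, had 124, 93.7, 97.1 and 88.0 in Vehicle and between 78.4 and 111 (median 82.5) in SP2509 (log2 fold change -0.20, SE 0.17, limma adjusted p = 0.477). Kdm2b, which recruits a Polycomb complex to CpG islands, had 258, 174, 148 and 209 in Vehicle and between 137 and 216 (median 170) in SP2509 (log2 fold change -0.15, SE 0.19, limma adjusted p = 0.64). Both overlapped between the groups. Kdm2a was the most even of the 3, at -0.03 (95% interval -0.22 to 0.17).

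The 6 members with another or an unsettled substrate all had positive fold changes, with a median of 0.09, and Smyd2 alone passed. Kmt2e, an MLL relative without known catalytic activity on histones, had 753, 700, 759 and 614 in Vehicle and between 670 and 881 (median 753) in SP2509. The groups overlapped (log2 fold change 0.11, SE 0.11, limma adjusted p = 0.559). Setd3, whose product methylates a histidine of actin, was at 0.08, and Smyd5, Setd5 and Jmjd6 were at 0.05, 0.01 and 0.11.

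**Figure D3:**
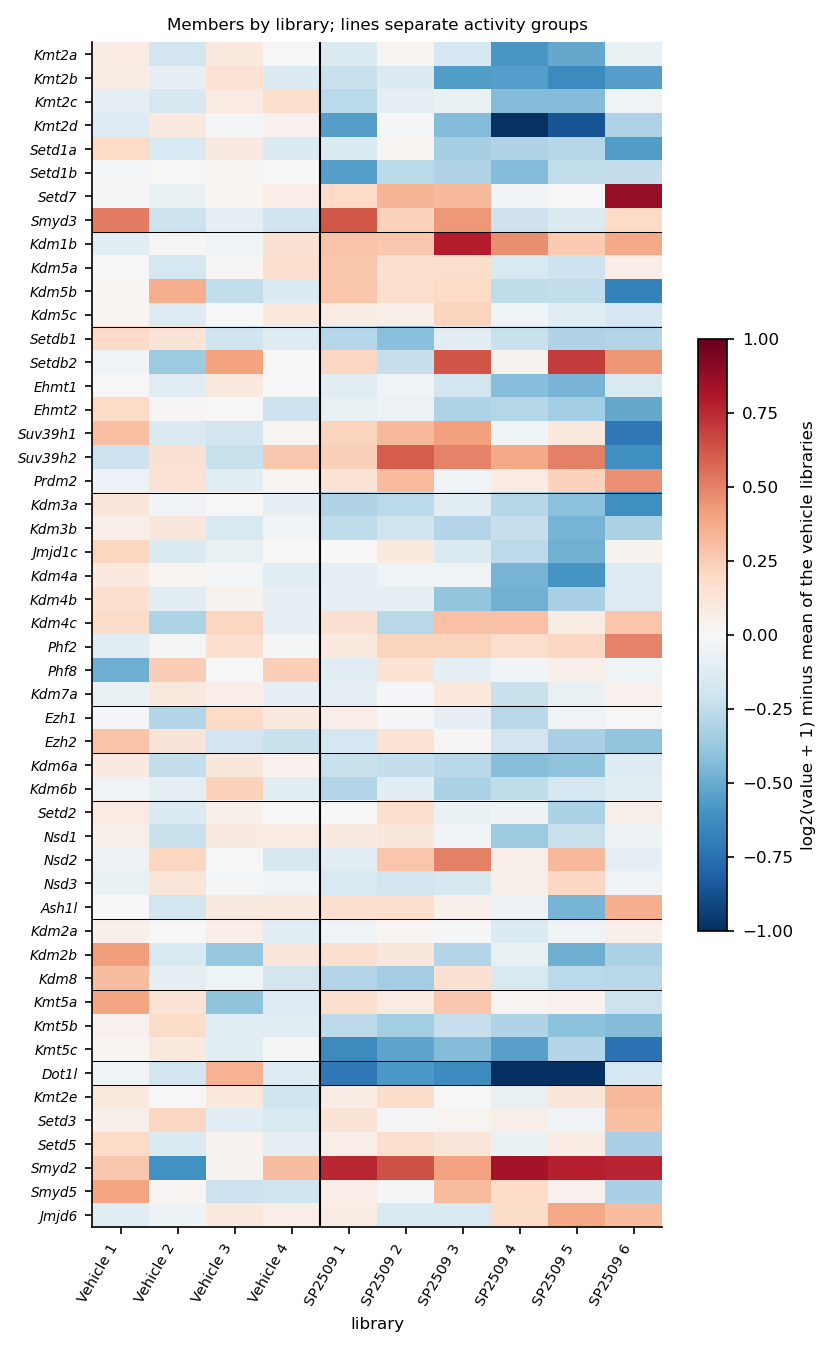
Difference of log2(value + 1) from the mean of the Vehicle libraries (colour, values beyond 1 in either direction drawn in the end colour) for the 50 members (rows, grouped by activity) in the 10 libraries (columns). Many rows are lower in SP2509 replicates 4 and 5 than in replicates 1 to 3, and Smyd2 is higher in every SP2509 column.

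The members did not move evenly across the SP2509 libraries. Their median difference from the Vehicle mean on the log2 scale was -0.17 and -0.21 in SP2509 replicates 4 and 5 and -0.12 in replicate 6, against -0.02, 0.00 and -0.03 in replicates 1, 2 and 3. Summed over the members the level was 31480 and 32000 normalised reads in replicates 4 and 5, between 35580 and 37710 in the other SP2509 libraries and between 38010 and 40870 in Vehicle. Replicates 4 and 5 are those with high Muc5b and count as 1 unit. Without them the median log2 fold change of the members was -0.00, 26 members were negative and Kmt5c was the called member (log2 fold change -0.58, limma adjusted p = 0.0438).

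Fold changes of the members also went with the base composition of their transcripts. Across the 50 members the fold change and the GC content of the longest transcript had a Pearson r of -0.46 (Spearman rho -0.44), and over 17076 genes tested r was -0.04. Genes are not independent replicates, and all points share the same 10 libraries. Of 10 members with at least 55% GC, 9 were negative, at a median of -0.30, and of 40 members under 55% GC, 21 were negative, at a median of -0.02. Over all genes, 2069 of 3821 with at least 55% GC were negative (median -0.05), and 6144 of 13255 under it (median 0.04). With the correction for transcript length and GC content the medians of the members were -0.11 and 0.02. Kmt5c kept its call after it (log2 fold change -0.47, limma adjusted p = 0.0313). Dot1l was at -0.53 (limma adjusted p = 0.089), Smyd2 at 0.62 (limma adjusted p = 0.067) and Kmt2b at -0.22 (limma adjusted p = 0.292).

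**Figure D4:**
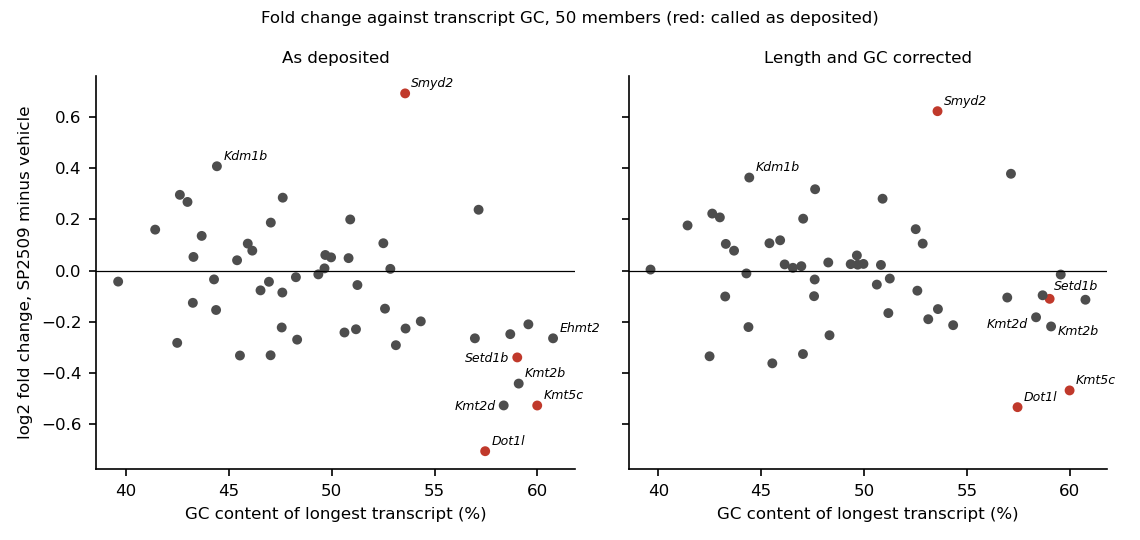
Log2 fold change (vertical axis) against GC content of the longest transcript in percent (horizontal axis) for the 50 members, as deposited on the left and after the correction for length and GC on the right. Red points are the called members. Kmt5c and Dot1l stay low after the correction, and Setd1b moves from -0.34 to -0.11.

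Levels per kilobase of the longest transcript spanned a wide range within the set. That transcript could be of any type, coding or not, and the levels and their order depend on this choice. Ehmt2 was highest in Vehicle (605 normalised reads per kilobase, 491 in SP2509), followed by Dot1l (504 and 330), Kmt5a (463 and 474), Kmt5c (432 and 298) and Setd3 (415 and 444). Kmt2b, the sixth, was at 221 and 160. The lowest levels per kilobase were those of Smyd3 (11.4 and 13.2), Suv39h2 (13.5 and 16.0) and Setdb2 (16.0 and 20.6). The Vehicle libraries of neighbours among the first 5 genes overlapped, so their order is not settled, and those of Setd3 lay above those of Kmt2b. Of the called members, Dot1l and Kmt5c are thus among the most abundant of the set, and Smyd2 ranked 35 of 50 in Vehicle.

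**Figure D5:**
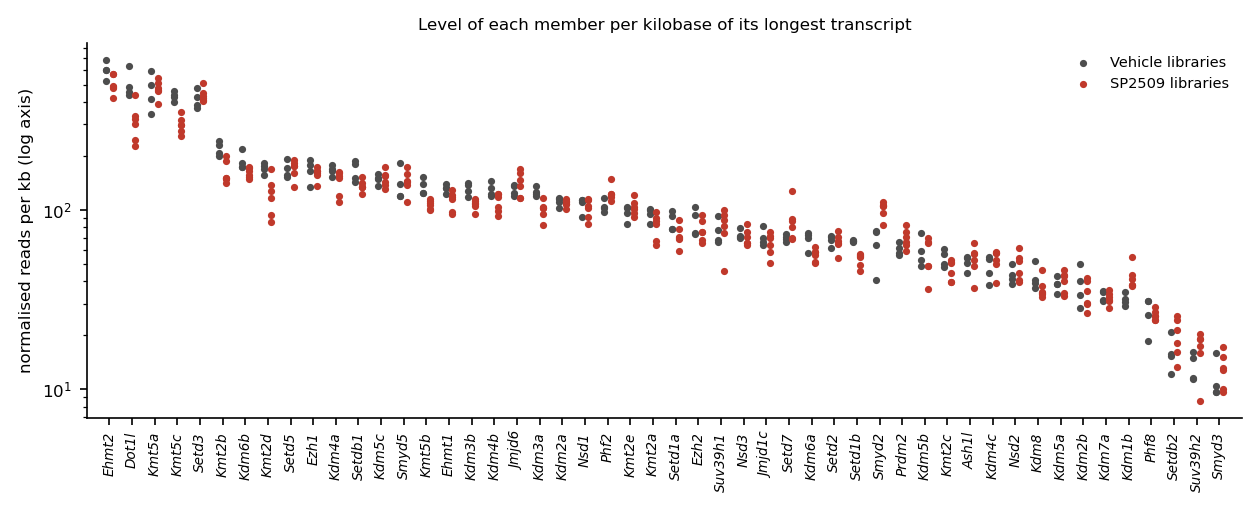
Normalised reads per kilobase of the longest transcript (vertical axis, log scale) of the 50 members, ordered by their Vehicle mean, with 1 point per library (grey Vehicle, red SP2509). Ehmt2 is highest at a Vehicle mean of 605 and Smyd3 lowest at 11.4.

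Beside the enzymes, 65 of 71 listed partner and related genes could be tested, and 5 were higher and 4 lower, where 4.95% of all genes tested were called higher and 4.15% lower. Nothing particular to the partners is read from these counts. Of 10 subunits of Polycomb repressive complex 2, the histone chaperone genes Rbbp4 and Rbbp7 rose and Mtf2, which guides the complex to CpG islands, fell. Rbbp4 stood at 671, 573, 621 and 621 in Vehicle and at 733 to 1030 in SP2509, with the groups apart (log2 fold change 0.51, SE 0.11, limma adjusted p = 0.0194, and 0.0734 merged). Rbbp7 was at 0.45 (limma adjusted p = 0.0206, and 0.0796 merged) and Mtf2 at -0.49 (limma adjusted p = 0.031, and 0.114 merged). Both chaperones also serve other chromatin complexes, and Eed and Suz12, which form the core with Ezh1 or Ezh2, were at 0.21 and -0.01 and did not pass.

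Of 6 partners of Dot1l and of elongation, Mllt3 (AF9), which binds DOT1L, rose by 0.85 (SE 0.23, limma adjusted p = 0.0397, and 0.0996 merged). Its 4 Vehicle libraries lay at 213 to 358, SP2509 replicates 1 to 5 at 418 to 531 and replicate 6 at 960. Mllt10 (AF10), a cofactor of DOT1L, fell by 0.42 (SE 0.12, limma adjusted p = 0.0425, and 0.111 merged), from 759 to 970 in Vehicle to 530 to 712 in SP2509. The groups were apart in both. Among 11 noncatalytic subunits of the COMPASS complexes, which differ in part from complex to complex, and among 10 readers and cofactors of lysine 9 methylation, limma called 0 genes in either direction, while 4 of the 11 and 1 of the 10 had an unadjusted p under 0.05, against 28% of all genes tested.

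Further called genes were Ring1 of Polycomb repressive complex 1 (log2 fold change -0.43, limma adjusted p = 0.0183, and 0.0819 merged) and the lysine 36 reader Morf4l1 (0.71, limma adjusted p = 0.0384, and 0.112 merged). Among 14 tested SET and Jumonji genes outside the set, Setd4 fell by 0.61 (limma adjusted p = 0.0157, and 0.0751 merged). It had 425, 427, 319.5 and 421 in Vehicle and 238 to 289 in SP2509. The hydroxylase gene Riox2 rose by 1.04 (limma adjusted p = 0.0345, and 0.0869 merged), from 33.4 to 67.6 in Vehicle to 64.0 to 130 in SP2509, where replicate 5 lay within the Vehicle range.

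Some markers of other cell types differed between the groups, not all in the same direction within a list. The neural adhesion gene Ncam1 was lower, at 132 to 254 normalised reads with Vehicle and 77.7 to 159 with SP2509 (log2 fold change -0.85, limma adjusted p = 0.0449, and 0.14 merged). Of 6 fibroblast markers 1, Col3a1, was lower and 3 had positive fold changes that did not pass, with Lum at 0.64 and Dcn at 0.42 (summed level of the list 9238 to 11630 in Vehicle and 10030 to 12240 in SP2509). Of 5 macrophage and dendritic cell markers 1, Itgax, was lower, while Cd68 was at 0.48 and did not pass (summed level 402 to 602 and 356 to 553). None of 7 keratinocyte markers and none of 9 skeletal muscle markers was called, although their sums ranged from 53400 to 267400 and from 149400 to 746200 over all libraries. Mcm2 was higher, alone among 6 proliferation markers, and none of 4 endothelial, 4 tested gland markers and 1 tested lymphocyte marker was called. With the pairs merged the limma adjusted p was 0.123 for Col3a1, 0.1085 for Itgax and 0.0801 for Mcm2. No marker of the fibroblast, macrophage, keratinocyte and muscle lists was at 0 in any library. The part of these cell types in the levels of the enzymes was not tested.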

How the data were processed

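Tongue RNA was sequenced in 10 libraries, 4 Vehicle and 6 SP2509, after poly-A selection and random-hexamer priming, per the labels' protocols. HISAT2, featureCounts and the build mm10 (the same as GRCm38) are named in the submitters' processing notes. For versions, annotation and strand setting the sources used here give nothing. The signal values deposited by the authors are gene counts scaled by 1 size factor per library. No label says so, and it was inferred because 100% of values were whole multiples (tolerance 0.01) of the value of 1 read (0.898 to 1.85 in Vehicle, 0.727 to 0.873 in SP2509), and median-of-ratios size factors matched to 6.05e-08 percent. IDs were matched to symbols for 27139 of 27151 genes. Coordinates and transcripts come from GENCODE M21.

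Differences were tested two-sided with limma (3.58.1, R 4.3.3; trend, robust) on log2(value + 1) over 10 libraries without covariates. Genes entered with at least 10 in at least 4 libraries, which left 17088, and Benjamini-Hochberg adjustment ran over all of them. Fold changes use the same log2(value + 1) scale and so are too small for low genes. Members described in full are the called ones, the 2 with the smallest p of each activity group and 3 paralog pairs, and the others are given in brief. The members and lists were chosen with earlier results of these data known. Alternatives included edgeR 4.0.16 and DESeq2 1.42.0 on recovered whole reads. The length and GC correction was a loess fit (span 0.3) per library on 17076 genes. On simulated data of 17088 genes, 0.5% of genes changed 1.5-fold, 65.5% of those changed 2-fold and 98.5% of those changed 4-fold were recovered, with 0%, 10.9% and 2.96% of calls false. The called members had fitted folds of 0.613 to 1.62, under the 2-fold change. The simulation drew the 10 libraries as independent, without close pairs, and changed 200 genes at each fold. Its rates may therefore not hold for the measured data. Y-linked genes were not analysed here, and some listed marker genes are not reported here. Python 3.11.15 with pandas 2.3.3 and matplotlib 3.10.9 drew the figures.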

Additional observations from a re-analysis of the deposited data

Results flagged for a closer look

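In 6 of 100 groups of libraries (50 members in each of the 2 treatments) the highest or lowest library stood far from the others by Dixon's criterion, where chance flags about 1 in 20. Setd7 had 949 normalised reads in SP2509 replicate 6, against 508 to 657 in the other SP2509 libraries. In the same library Phf2 had 813, against 617 to 672. SP2509 replicate 3 was highest in Kdm1b, at 271.5 against 188 to 216, and in Kdm8, at 110.9 against 78.4 to 89.6. Smyd3 had 109.4 in Vehicle replicate 1, against 66.0 to 71.8 in the other Vehicle libraries. Nsd1 was lowest in Vehicle replicate 2, at 1173 against 1420 to 1458.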

How the results depend on the processing

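As analysed, 1 member was higher and 3 lower, 846 genes were higher and 709 lower over all genes tested, and 5 partner and related genes were higher and 4 lower. With DESeq2, 8 members were lower, 1606 genes higher and 1394 lower, and 9 partners higher. With the close pairs merged, every one of these counts was 0 in limma (3632 genes at an unadjusted p under 0.05). Limma without trend gave 0 members higher and 1 lower, 490 genes higher, and 3 partners higher and 2 lower. Without a filter, 0 members and 553 genes were higher and 2 partners lower, and with a stricter filter of 50, 5 members were lower. Quantile normalization gave 8 members lower and a split of 666 genes higher and 1060 lower. Rescaling to reads outside mitochondrial genes, which shifted the median of all genes by -0.15, gave 0 members higher and 10 lower, 297 genes higher and 1442 lower, and 1 partner higher and 7 lower. The length and GC correction gave 0 members higher and 1 lower, 449 genes lower and 2 partners higher. Without SP2509 replicates 4 and 5, an alternative chosen after seeing the data, 0 members were higher and 1 lower, 219 genes higher and 156 lower, and 2 partners higher and 0 lower. With the threshold on the adjusted p at 0.1, 2 members were higher and 8 lower, 1713 genes higher and 1388 lower, and 10 partners higher.

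Leaving out 1 library gave 0 to 1 members higher and 0 to 6 lower, 171 to 1971 genes higher and 107 to 1488 lower, and 1 to 11 partners higher and 0 to 6 lower. The lowest counts of genes came without Vehicle replicate 1 and the highest without SP2509 replicate 6. Replicate numbers did not pair the libraries: same-numbered libraries correlated at 0.13, 0.03, -0.20 and 0.13, and replicate 4 alone correlated best with its own number. With the replicate block, 0 members were higher and 2 lower, 1125 genes higher and 769 lower, and 8 partners higher and 2 lower.

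Among uncalled members near 0 the sign changed. Kdm5b was at 0.10 with the replicate block and at -0.169 to 0.0348 on leaving out 1 library. Kdm5c was at -0.00364 with DESeq2, -0.0613 with quantile normalization, -0.14 with the mitochondrial rescaling and -0.0369 to 0.0417 on leaving out 1 library. Ezh1 was at -0.154 to 0.0107 on leaving out 1 library, Nsd1 at 0.0107 with the length and GC correction and 0.0286 without replicates 4 and 5, and Kmt2e at -0.0452 with the mitochondrial rescaling. The causes of these shifts were not tested. Kmt2b passed in 7 of 24 alternatives, Kmt5b in 6, Kdm3a and Kdm3b in 4 each, and Setdb1 and Kdm6a in 1 each. For Kmt2b, Kmt5b, Kdm3a and Kdm3b, 1 of these alternatives is the threshold of 0.1 on the adjusted p. Kdm1b passed at that threshold alone, and its lowest adjusted p was 0.0557 (DESeq2). Kmt2d passed with DESeq2, quantile normalization and the mitochondrial rescaling, without SP2509 replicate 2, without SP2509 replicate 6 and at the threshold of 0.1. Depth limits the low members: 1 read was worth up to 1.85 normalised reads in Vehicle.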
